A study of Mus musculus with 4 samples.

Results

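The genes described here are the potassium channel genes on the array, chosen as every non-control probe whose gene name in the scanner files begins with Kcn. The rule found 143 probes for 95 genes, of 34788 gene names on the array. The names sort into 21 groups by the letters after Kcn. In all, 87 of the 95 genes were measured well enough to be tested, beside 29245 tested genes over the whole array.

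Lumbar cord came from male mice of the outbred ICR strain, adults 8 weeks old. In the SNL group (2 mice) the L5 spinal nerve was tied off, which cuts the axons of its sensory and motor neurons outside the cord and is used as a model of neuropathic pain. In the sham group (2 mice) the same nerve was exposed and not tied. Cord was taken at day 10 after surgery in both groups, and each mouse was read on 1 one-colour Agilent array. The labels give the L4 to L5 segments under treatment and L5 as the source, and do not give the side of the cord.

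Potassium channels let potassium leave the cell, which sets the resting potential, ends the action potential and limits firing rate. Inward rectifiers (Kcnj) and tandem pore domain channels (Kcnk) carry current at rest. Voltage-gated families (Kcna, Kcnb, Kcnc, Kcnd, Kcnh, Kcnq) open on depolarization, and the silent subunits (Kcnf, Kcng, Kcns, Kcnv) form no channel alone but modify Kcnb channels. Calcium-activated (Kcnm, Kcnn) and sodium-activated (Kcnt) channels respond to ion entry, and Kcnab, Kcne and Kcnip genes encode accessory proteins. In the cord, loss of potassium conductance in sensory and dorsal horn neurons has long been studied as a source of excess firing after nerve injury.

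Every value below is a log2 signal relative to the 75th percentile of its array, so 0 is that percentile, and every difference is SNL minus sham on the log2 scale with the standard error of the fit. Levels of different genes come from different probes and are not compared. The groups differed in array quality: 81.9% to 82.1% of spots were well above background in the sham mice and 74.9% to 78.1% in the SNL mice, with 502 to 608 outlier spots against 109 to 240. The part of these measures in the results was not tested, and no spot was saturated. Markers of neurons, astrocytes and oligodendrocytes and the lumbar Hox genes were well above background in every mouse, except Syt1, which had no value in sham mouse 1. The 2 sham mice differed in Schwann cell markers, whose summed signal (in units of the 75th percentile) was 5.58 and 0.114 in sham mice 1 and 2, against 5.97 and 3.28 in the SNL mice. Skeletal muscle markers summed to 24.0 in SNL mouse 1, against 2.34 and 3.09 in the sham mice and 1.72 in SNL mouse 2.

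The probes behind the largest differences, and the probes of Kcnq5 that disagreed with each other, are shown by the middle 30 bases (bases 16 to 45) of each 60-base probe, as spotted, 5′ to 3′, with positions on mm9.

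Kcnj14, chr7:53072247-53072306, minus strand: tgtttgaagtgccattcttagagcatccaa
Kcnj14, other probe, chr7:53073189-53073248, minus strand: tcccagggacaccagtctgcagtgccaagg
Kcng4, chr8:122148827-122148886, minus strand: ggtggacattcctagttatccagctcttag
Kcnk6, chr7:30007215-30007274, minus strand: attcctggttctgaaagcagaactctgtga
Kcnq5, chr1:21389067-21389126, minus strand: acatgtttgccacgtctaatctaaatgttt
Kcnq5, a lower probe, chr1:21392496-21392555, minus strand: ctgatcaggtcgacagaagaactgaactta
Kcnq5, a higher probe, chr1:21456326-21456385, minus strand: caaatgcctgatgattaaaagtgacctttc

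Of the 87 tested potassium channel genes, Kcnj14 alone passed the test after adjustment over all genes (limma, Benjamini-Hochberg, adjusted p under 0.05), and it fell. Over the whole array the same test called 50 genes, or 0.171%, of which 47 (0.161%) were higher and 3 (0.0103%) lower in SNL. The other 2 lower genes were Chodl and Mnx1, both from the motor neuron marker list, and Mnx1 was well above background in the sham mice alone. At an unadjusted p under 0.05, 13 potassium channel genes were lower and 1 was higher, or 14.9% and 1.15% of those tested. The background shares at that threshold were 5.47% lower and 6.68% higher (12.1% in either direction). The lower genes include Kcnk13, whose sham value is from 1 mouse. These counts rest in part on single mice: fewer genes were lower in the fits without sham mouse 1, without sham mouse 2 or without SNL mouse 1. Those fits leave 1 mouse in a group, and the share over all genes in them is not given.

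A difference of at least 2-fold at the same unadjusted threshold was seen for Kcnj14 and Kcng4 (lower) and Kcnk6 (higher). The share of all genes past that rule was 2.61%, made up of 0.704% lower and 1.9% higher. The 2 SNL mice lay wholly below the 2 sham mice for 33 of the 87 genes and wholly above for 5, together 43.7% of them. Over all genes 46.1% did not overlap, 21% below and 25.2% above, so the pooled share was near the background while the shares by direction, 37.9% below and 5.75% above, were not. Most potassium channel genes moved little: 62.1% lay within 0.2 of 0, against 58.5% of all tested genes. Their median difference was -0.07 beside 0.03 over all genes, and 59 of the 87 were below 0.

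**Figure D1:**
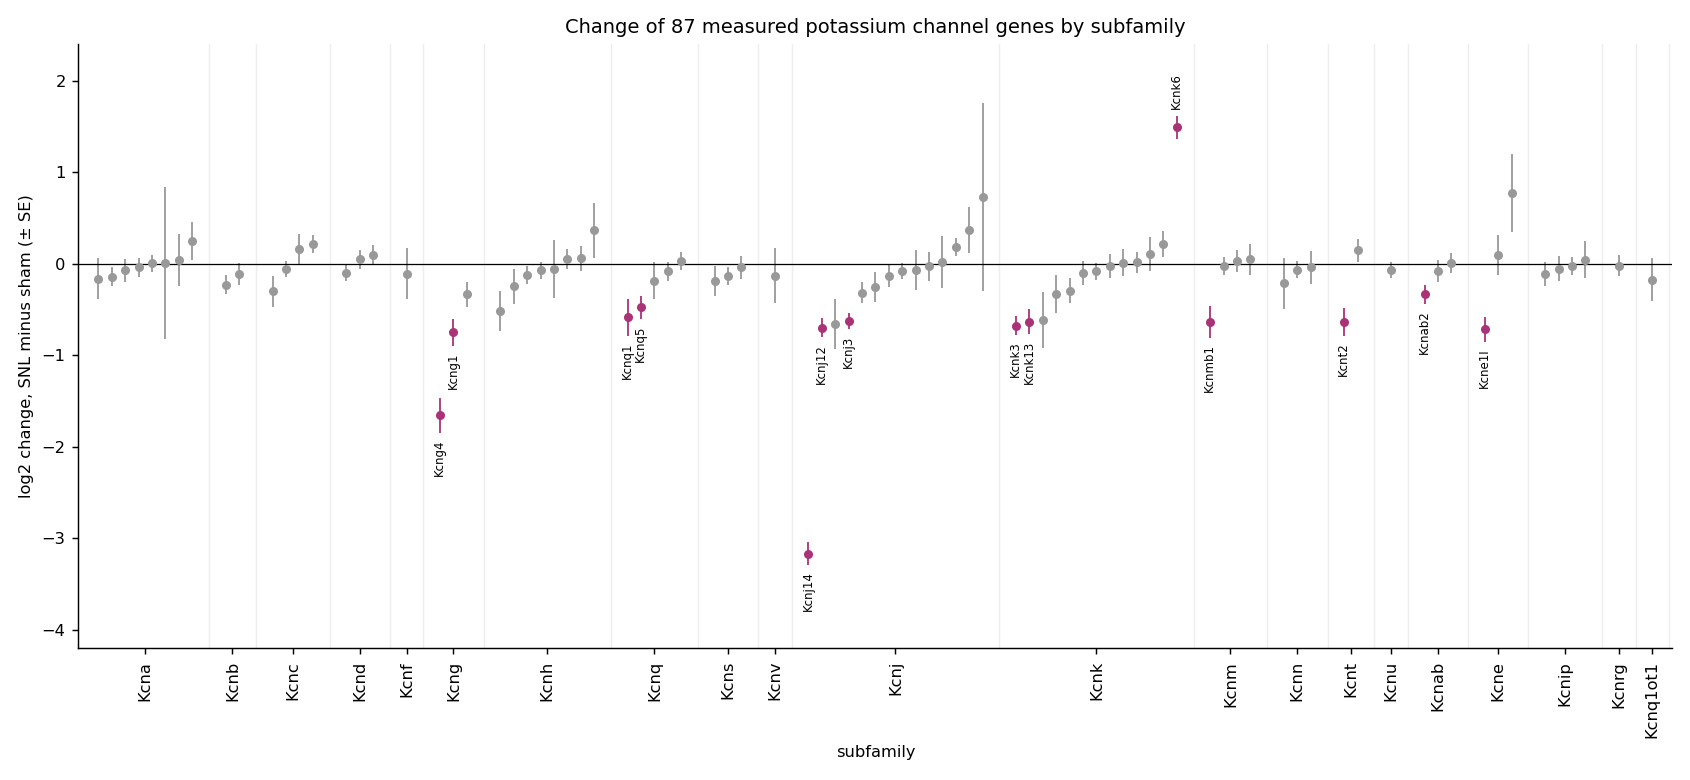
Difference between SNL and sham (log2, ± SE) for the 87 tested potassium channel genes, 1 point a gene, grouped by subfamily along the horizontal axis; the 14 genes at an unadjusted p under 0.05 are coloured and named. Kcnj14 at -3.17 and Kcng4 at -1.66 lie below the rest, Kcnk6 at 1.49 above, and most other genes lie near 0.

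Among the inward rectifiers, 15 genes were on the array and 14 were tested, with a median of -0.11. Kcnj14 encodes a rectifier known from motor neurons of the brainstem and spinal cord. Its signal was 0.90 and 0.66 in the sham mice and -2.39 and -2.38 in the SNL mice. Both SNL mice lay far below both sham mice, and the spread within a group was small beside the gap. The difference was -3.17 ± 0.124, an 8.98-fold lower signal (limma adjusted p = 0.0410). The other Kcnj14 probe, 942 bases away, read -2.02 and -2.26 in the sham mice against -5.58 and -5.09 after ligation, a difference of -3.19 ± 0.222. The difference stayed between -3.29 and -3.05 whichever mouse was left out, but the adjusted p then lay between 0.121 and 0.477, so the call needed all 4 mice. It was also lost under quantile normalization (adjusted p = 0.0531).

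Kcnj3 encodes a subunit of the G protein-gated rectifiers that open when opioid and other inhibitory receptors are engaged. Its signal was -2.82 and -2.81 in the sham mice and -3.44 in both SNL mice, with no overlap. The difference was -0.63 ± 0.0872 (limma adjusted p = 0.163), and its other probe gave -0.64. Kcnj12, which encodes a strong rectifier that helps hold the resting potential, read 0.12 and -0.03 in the sham mice against -0.64 and -0.67 after ligation. That difference was -0.70 ± 0.105 (limma adjusted p = 0.175). Neither gene passed after adjustment here. Kcnj12 passed only with a variance trend and robust estimation (limma adjusted p = 0.032), and Kcnj3 under no alternative.

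The rectifiers of glia differed little. Kcnj10, the main astrocyte channel for potassium uptake, read 3.49 and 3.59 in the sham mice against 3.76 and 3.69 after ligation, a difference of 0.18 ± 0.0988. Kcnj16, its partner subunit, differed by -0.08 ± 0.0889. Kcnj2, a rectifier of microglia, muscle and vessels, differed by 0.02 ± 0.284 with overlapping groups. Kcnj13 had the highest value of the subfamily, 0.73, but its SE was 1.03. Its signal was -4.25 in sham mouse 1 and -6.90 in sham mouse 2, with both SNL mice between them. Sham mouse 2 was also the mouse low in Schwann cell markers, whose part in this value was not tested.

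Among the tandem pore domain channels, 13 of 14 genes were tested, with a median of -0.08. Kcnk6 (TWIK-2), a channel known from macrophages and microglia, read -1.72 and -1.96 in the sham mice and -0.33 and -0.37 in the SNL mice. It was the only member higher at an unadjusted p under 0.05, with a difference of 1.49 ± 0.126, or 2.81-fold (limma adjusted p = 0.0916). It missed the adjusted threshold here and passed it with no filter on dim probes (adjusted p = 0.0447) or with a variance trend and robust estimation (adjusted p = 0.00711).

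Kcnk3 (TASK-1), an acid-sensitive leak channel of motor neurons and many other cells, read -1.16 and -1.30 under sham surgery against -1.94 and -1.88 after ligation. The difference was -0.68 ± 0.103 (limma adjusted p = 0.176). Kcnk13 (THIK-1), the main resting potassium channel of microglia, was fitted on 3 arrays because its spot in sham mouse 1 was marked as an outlier by the scanner software. It read -0.33 in the remaining sham mouse and -0.92 and -1.01 in the SNL mice, a difference of -0.63 ± 0.134 (limma adjusted p = 0.329). With 1 sham value, the spread behind this SE comes from the SNL mice and from the other genes of the fit. The stretch- and heat-sensitive channels Kcnk2 (TREK-1) and Kcnk4 (TRAAK) differed by -0.10 ± 0.129 and 0.22 ± 0.141. Kcnk18 (TRESK), a channel of sensory ganglion neurons, was well above background on 1 sham array and was not tested.

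The silent subunits of the Kcng group had the lowest subfamily median, -0.75 over 3 tested genes of 4. At the brightest probe of all 3 the SNL mice lay below the sham mice. The same held for 21% of all tested genes, for 7 of 14 Kcnj genes and for 6 of 13 Kcnk genes. Kcng4, which joins Kcnb subunits and is known from fast motor neurons, read -0.36 and -0.71 in the sham mice, and -2.04 and -2.34 in the SNL mice. The difference was -1.66 ± 0.192, or 3.15-fold lower (limma adjusted p = 0.138). It passed the adjusted threshold only with a variance trend and robust estimation (adjusted p = 0.0131), and 1 probe on the array carried its name. Kcng1 read -2.91 and -2.77 in the sham mice, and -3.74 and -3.45 in the SNL mice, a difference of -0.75 ± 0.148 (limma adjusted p = 0.240), with -0.28 at its other probe. Kcng2 differed by -0.33 ± 0.133, with 0.08 and overlapping groups at its other probe, and Kcng3 was not well above background on any array.

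The silent subunits of the Kcns group differed less. Kcns1, a sensory neuron subunit studied in pain, had the lowest value, -0.19 ± 0.163, and Kcns2 the highest, -0.04 ± 0.126.

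**Figure D2:**
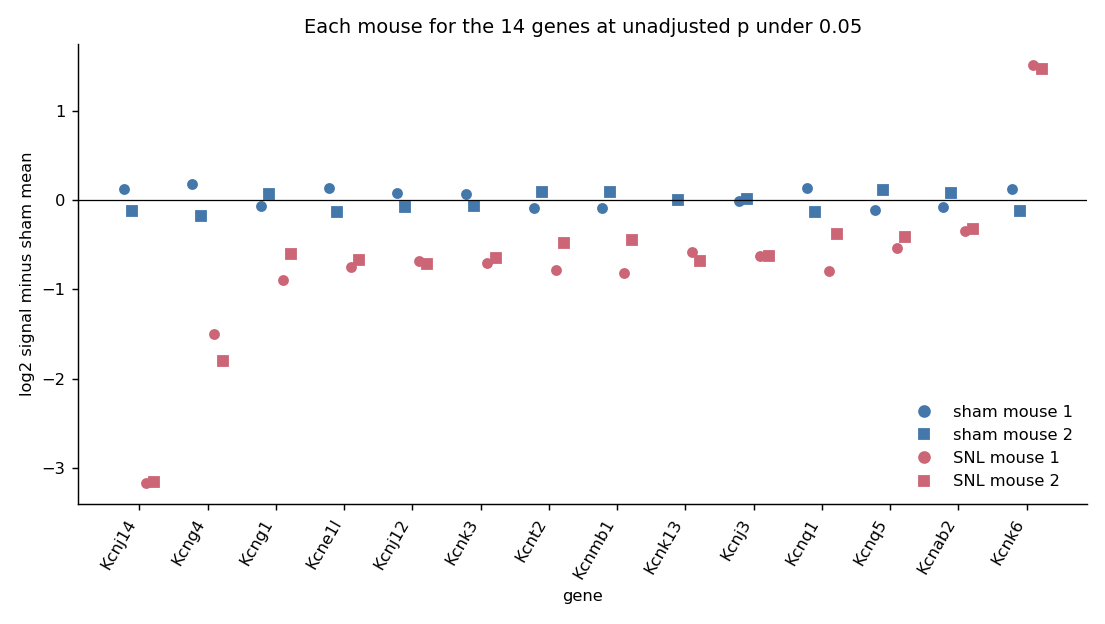
Signal of each mouse minus the mean of the sham mice (log2, vertical axis) for the 14 genes at an unadjusted p under 0.05; colour marks the group and symbol shape the mouse number. In all 14 genes the SNL mice and the sham mice do not overlap, and Kcnk13 has 1 sham point.

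Among the axonal and fast-spiking channels no gene passed at either threshold. The 8 Kcna genes, many of which sit along myelinated axons, had a median of -0.02. Kcna1 differed by 0.01 ± 0.0948 and Kcna2 by -0.14 ± 0.106. Kcna3, a channel of microglia and T cells, was the lowest of the group at -0.16 ± 0.223, and Kcna10 the highest at 0.25 ± 0.203. The 4 Kcnc genes, which allow fast repetitive firing, had a median of 0.05. Kcnc1 had the highest value, 0.22 ± 0.0988. The 3 Kcnd genes carry the A-type current that delays firing in dorsal horn neurons. Kcnd2 read 1.76 and 1.88 in the sham mice against 1.95 and 1.89 after ligation, a difference of 0.10 ± 0.101. Kcnd3 differed by -0.10 ± 0.0901. A p above the threshold does not show that these genes were alike in both groups.

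The 8 Kcnh genes, voltage-gated channels of the ether-a-go-go family, ran from -0.52 ± 0.219 (Kcnh3) to 0.37 ± 0.303 (Kcnh4). The Kcnh4 value came from 1 mouse: SNL mouse 2 read -2.58, and the other 3 mice lay between -3.40 and -3.27.

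The 5 Kcnq genes had a median of -0.19. Kcnq3, a subunit of the neuronal M-current that holds back repeated firing, differed by 0.03 ± 0.0934. Kcnq5, which can add to that current, read -1.62 and -1.40 in the sham mice, and -2.05 and -1.93 in the SNL mice, a difference of -0.48 ± 0.129 (limma adjusted p = 0.331). Its other probes gave -0.87 ± 0.0943 and 0.85 ± 0.342, so its direction depends on the probe. Kcnq1, best known from heart and epithelia, read -3.45 and -3.73 in the sham mice against -4.38 and -3.97 after ligation. That difference was -0.59 ± 0.203 (limma adjusted p = 0.411) and only just under the unadjusted threshold. Its other probe overlaps the same stretch of chr7 (150612887-150612946 and 150612896-150612955) and gave -0.68.

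Among channels opened by calcium, Kcnma1, the large-conductance pore subunit, differed by -0.03 ± 0.0965 at its brightest probe. The dimmest of its 3 probes gave 0.45. Its accessory subunit Kcnmb1, known from smooth muscle, read -5.02 and -4.83 in the sham mice against -5.74 and -5.37 after ligation, a difference of -0.63 ± 0.176 (limma adjusted p = 0.340). Over the 6 endothelial and mural cell markers the median was -0.24, with summed signals of 13.3 and 12.9 in the sham mice against 10.6 and 11.2 after ligation, and their part in the Kcnmb1 value was not tested. Kcnmb2, a neuronal accessory subunit, differed by 0.05 ± 0.169. The small- and intermediate-conductance genes Kcnn3 and Kcnn4 differed by -0.04 ± 0.180 and -0.21 ± 0.281, with overlapping groups.

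Among channels opened by sodium, Kcnt1 (Slack), known from sensory neurons, differed by 0.14 ± 0.124. Kcnt2 (Slick) read -3.38 and -3.21 in the sham mice against -4.08 and -3.78 after ligation, a difference of -0.64 ± 0.155 (limma adjusted p = 0.298). Its other probe gave -0.28.

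Among accessory proteins, Kcne1l read 0.62 and 0.35 in the sham mice against -0.27 and -0.19 after ligation. Its difference was -0.72 ± 0.136 (limma adjusted p = 0.229), and its other probe gave -0.88. Kcne1l passed the adjusted threshold only with a variance trend and robust estimation (limma adjusted p = 0.044). Kcne3 was the highest member of that group at 0.78 ± 0.427, and its groups overlapped. Its other probe gave 0.51 ± 0.129 with no overlap. Kcnab2, a cytoplasmic beta subunit of Kcna channels, read -2.23 and -2.08 in the sham mice against -2.50 and -2.47 after ligation, a difference of -0.33 ± 0.104 (limma adjusted p = 0.374). Kcnab3 differed by 0.01 ± 0.112. The 4 Kcnip genes, calcium-binding partners of Kcnd channels, lay between Kcnip3 (DREAM, also a transcriptional repressor studied in pain) at -0.11 ± 0.132 and Kcnip2 at 0.04 ± 0.203.

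The 42 tested members outside the naming rule lay between -0.66 and 0.37, and the smallest unadjusted p among them was 0.0582. Of the 8 members not tested, Kcne1, Kcne2, Kcng3, Kcnj1, Kcnmb3 and Kcnv2 were not well above background on any array, and Kcnk18 and Kcnn1 were so on 1 sham array.

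Separate probes of a gene were compared in direction, all read in the same mice. Of 39 genes with several probes, 34 had more than 1 fitted, and in 11 of those 34 the probes differed in sign. For 7 of the 13 lower genes another probe was fitted, 8 probes in all. Of these 8, 7 were below 0, 5 of them at an unadjusted p under 0.05. These genes had been picked on their brightest probe, and 1 of the 5 probes, of Kcnq1, overlaps that probe. Some dim probes stood apart from the brightest, in both directions. Kcna7 gave 0.04 at its brightest probe and 1.22 at the other, and Kcnip3 gave -0.11 and 0.39. Kcnk15 gave 0.01 at its brightest probe and -0.64 at the other, and Kcnh8 gave -0.24 at its brightest and -0.68 at its dimmest. Over all 128 fitted member probes, 21 (16.4%) were lower and 6 (4.69%) higher at an unadjusted p under 0.05. Over all 44718 fitted probes the shares were 5.98% lower and 6.22% higher.

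**Figure D3:**
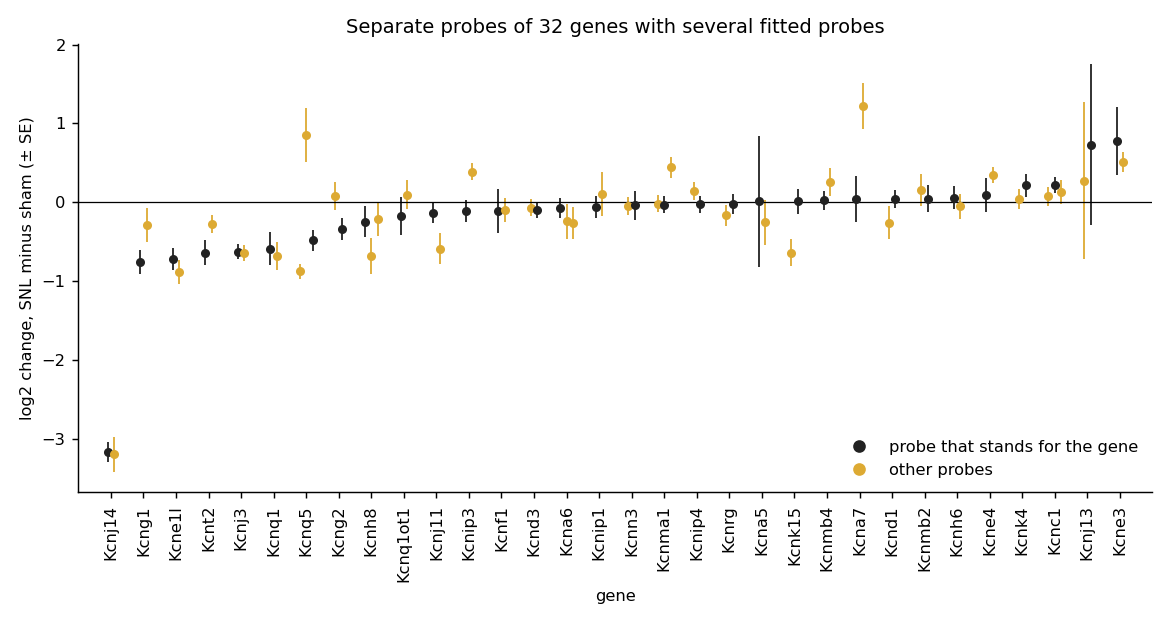
Difference between SNL and sham (log2, ± SE) at every fitted probe of 32 of the 34 genes that had several; dark points are the probe that stands for the gene, light points its other probes. The 2 probes of Kcnj14 lie at -3.17 and -3.19, while the 3 probes of Kcnq5 run from -0.87 to 0.85.

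The genes were also grouped, from background knowledge, by a cell type of the cord in which each is known. Such groups are not exclusive. That of motor neurons includes Kcns1, described above as a sensory neuron subunit, and Kcna1 and Kcna2, of a family placed along myelinated axons. It leaves out Kcnk3 (-0.68), described above as a channel of motor neurons and many other cells. These groups and the marker lists were chosen with earlier results of these data known, so their shares are not independent of those results. The 10 genes of motor neurons had a median of -0.17. At an unadjusted p under 0.05, 3 of them (30%), Kcnj14, Kcng4 and Kcnq5, were lower, against 5.47% of all tested genes. The direction of Kcnq5 depends on the probe. Most motor neuron markers were lower too. Of the 7 markers well above background on all 4 arrays, which leaves out Mnx1, 5 were lower at an unadjusted p under 0.05. That is 71.4%, against 5.47% of all tested genes. None of the 7 was higher at that threshold, and their median was -0.73. Their summed signal was 23.4 and 20.9 in the sham mice and 16.3 and 13.8 in the SNL mice. Chodl, found in fast motor units, fell by 3.84 ± 0.121 (limma adjusted p = 0.0375), and both SNL mice lacked a Mnx1 signal well above background. The cholinergic genes Chat and Slc5a7 differed by -0.73 ± 0.138 and -1.58 ± 0.156. Prph and Isl1 differed by 0.08 ± 0.141 and -0.02 ± 0.237, so the list did not move as a whole. In pieces of whole tissue, fewer cells of a type and less RNA per cell cannot be told apart.

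The 6 genes of microglia (Kcna3, Kcnab2, Kcnj2, Kcnk6, Kcnk13 and Kcnn4) had a median of -0.19, from Kcnk13 at -0.63 to Kcnk6 at 1.49. That median was -0.41 without sham mouse 1 and 0.13 without sham mouse 2. In the latter fit Kcnk13 had no sham value and dropped out, so the 2 medians cover different genes. Of the 10 microglia markers, 8 (80%) were higher at an unadjusted p under 0.05, against 6.68% of all tested genes. None of the 10 was lower, and their median was 0.58. Their summed signal was 38.1 and 38.9 in the sham mice against 64.7 and 55.4 after ligation. The part of either marker list in the channel values was not tested. The 4 genes of astrocytes had a median of -0.06, and the 14 genes of sensory and dorsal horn neurons (13 tested) a median of -0.05. Defining markers of sensory ganglion neurons were near the floor: Scn10a and Mrgprd were not tested, and the other 5 had summed signals of 0.736 and 0.644 in the sham mice against 0.451 and 0.843 after ligation.

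**Figure D4:**
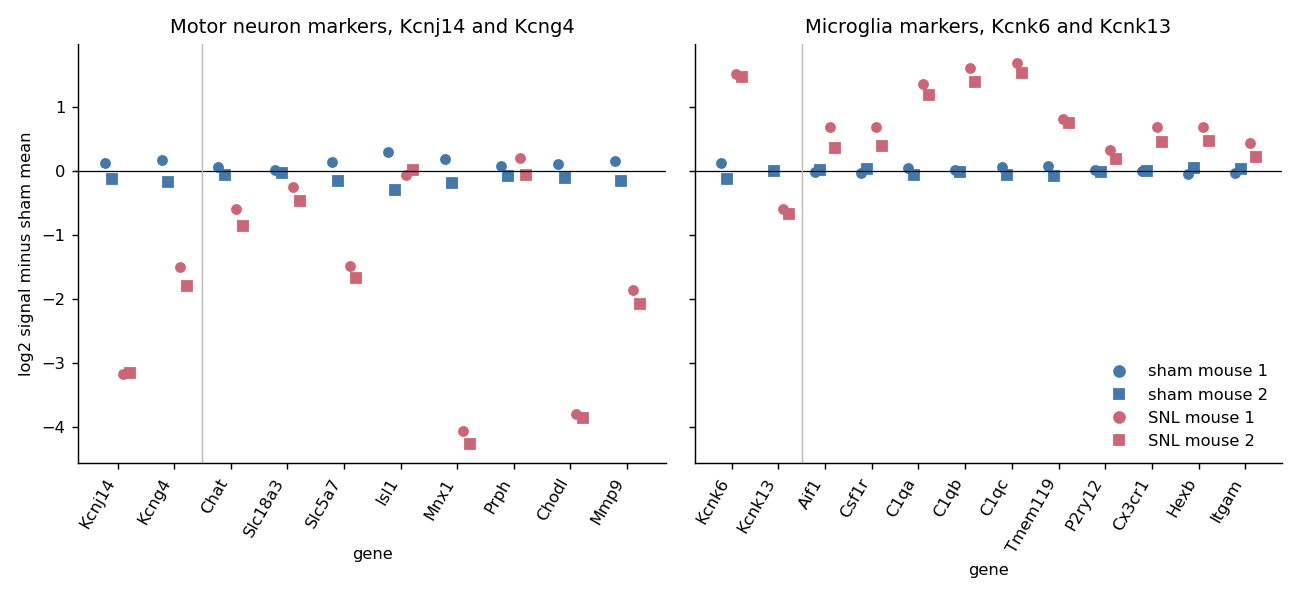
Signal of each mouse minus the mean of the sham mice (log2, vertical axis) for Kcnj14 and Kcng4 beside the motor neuron markers (left) and for Kcnk6 and Kcnk13 beside the microglia markers (right); colour marks the group. Chodl at -3.84 and Kcnj14 at -3.17 sit far below 0 in both SNL mice, and the 10 microglia markers sit above 0; the SNL points of Mnx1 were not well above background.

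Proteins that bind or regulate potassium channels were read from a list of 40 genes, all tested. Their median was 0.04, and at an unadjusted p under 0.05, 2 (5%) were higher and 3 (7.5%) lower, near the shares of 6.68% and 5.47% over all genes. Gnb3, a G protein beta subunit, read -3.81 and -4.11 in the sham mice against -7.11 and -6.77 after ligation, and was well above background in 1 of the 2 SNL mice. Its fitted difference was -2.98 ± 0.191 (limma adjusted p = 0.0677) and -2.16 with normexp correction (adjusted p = 0.0334), so its size is uncertain. It also passed with no filter on dim probes (adjusted p = 0.0447) and with the variance trend (adjusted p = 0.0103), but not with any mouse left out (adjusted p = 0.127 to 0.500). Jph4, a junctophilin of neurons, and Lrrc38, an auxiliary subunit of large-conductance channels, differed by -0.35 and -0.32. Snap25, a synaptic fusion protein that also binds Kcnb channels, and the G protein gamma subunit Gng2 differed by 0.43 and 0.30. The Kcnd partners Dpp6 and Dpp10 differed by 0.15 ± 0.128 and -0.03 ± 0.143. The sulfonylurea receptors Abcc8 and Abcc9, which join Kcnj8 and Kcnj11 in ATP-sensitive channels, differed by -0.17 and -0.32, and Lrrc55 by -0.25.

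**Figure D5:**
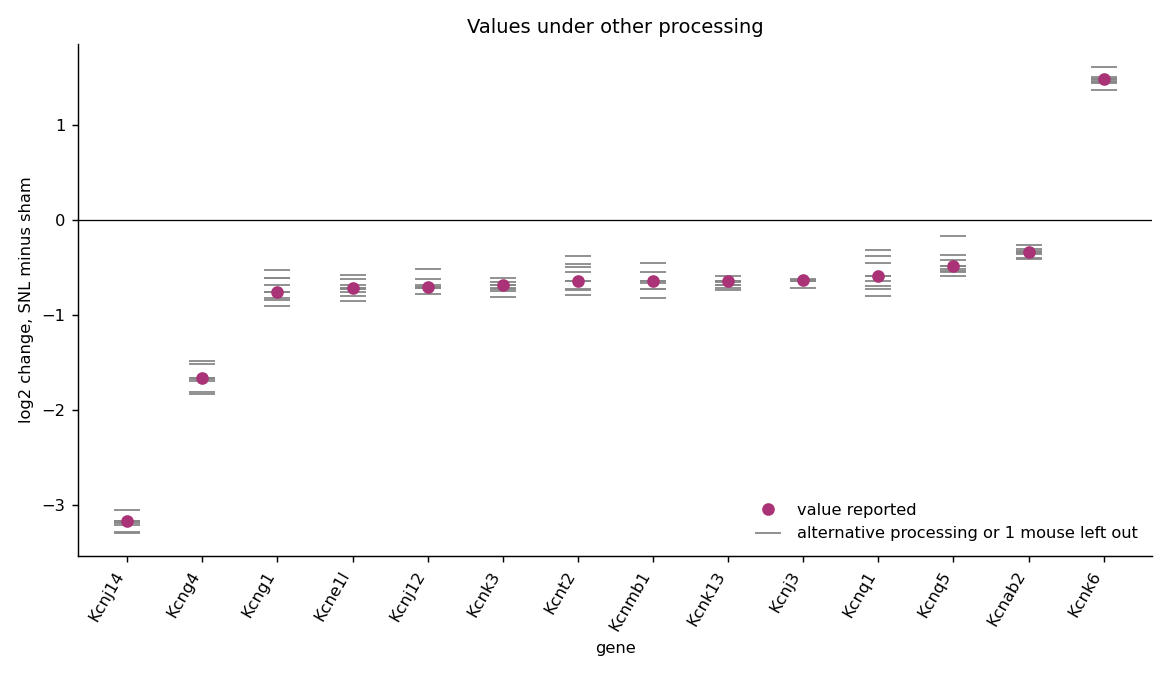
Difference between SNL and sham (log2, vertical axis) for the 14 genes at an unadjusted p under 0.05, with the reported value as a point and each alternative processing or left-out mouse as a dash. All 14 keep their sign under every alternative in which they were tested, and Kcnj14 runs from -3.29 to -3.05. Because the groups of these genes do not overlap, leaving out a mouse could not change a sign. The variance trend leaves the values as they are.

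Promoters are shown for Kcng4 and Kcnj3, picked because both genes were lower at an unadjusted p under 0.05 and both windows hold the same E-box letters. The windows are the 250 bases before the gene start from RefSeq on GRCm38.p6, another build than the probe positions. Capitals mark CAGCTG.

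Kcng4, chr8:119635681-119635930, minus strand: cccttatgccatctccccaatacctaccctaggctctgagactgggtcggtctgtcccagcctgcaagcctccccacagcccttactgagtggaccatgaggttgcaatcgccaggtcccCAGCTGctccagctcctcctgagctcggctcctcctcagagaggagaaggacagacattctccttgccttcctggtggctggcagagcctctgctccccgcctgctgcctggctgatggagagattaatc
Kcnj3, chr2:55435720-55435969, plus strand: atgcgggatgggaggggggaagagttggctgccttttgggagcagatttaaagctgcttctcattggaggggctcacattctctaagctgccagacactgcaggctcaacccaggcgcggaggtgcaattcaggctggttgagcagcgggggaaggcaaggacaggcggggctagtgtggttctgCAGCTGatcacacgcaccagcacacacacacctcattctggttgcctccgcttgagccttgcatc

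RefSeq windows were matched to 70 of the 95 member genes, 95 windows in all. Searched on both strands, CAGCTG was in 23.2% of these, against 13% of 32851 mouse windows of that length. GAGGAAG was in 11.6% against 10.6%, TATAAA in 3.16% against 12.4%, and TAATTA and TGACGTCA in none of the 95 against 4.84% and 1.55%. The median GC content was 58.4% against 52.4%. A match is a description of letters, and among the 12 windows of the lower genes CAGCTG was in 3.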

How the data were processed

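Gene expression was measured in 4 mice, 2 sham and 2 SNL, which the labels give as separate animals. The authors scanned 1-colour Agilent arrays (Cy3) and deposited spot intensities from Feature Extraction, which the file headers give as 10.7.3.1 and the submitters' processing notes as 10.7.1.1. They also deposited a table of log2 values of the same arrays, used as an alternative. From the deposited processed intensity, log2 values were scaled by subtracting the 75th percentile of the 59305 non-control spots on that array. Those marked as outliers (109 to 608 an array) were left out, and spots of a probe were averaged. A probe was tested if well above background on at least 2 of 4 arrays, and the brightest probe stood for its gene. limma 3.58.1 in R 4.3.3 (lmFit, eBayes) was fitted over 29245 genes with Benjamini-Hochberg adjustment, with 2 residual and 1.65 prior degrees of freedom. The median SE was 0.131. The number of arrays limits the precision: with 2 mice a group, the smallest two-sided p of an exact permutation test is 0.333. The fit was tested on simulated data.

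Named genes were every member at an adjusted p under 0.05, the 14 largest increases and 14 largest decreases among members at an unadjusted p under 0.05 without overlap, the highest and lowest of each subfamily of 3 or more tested members, a set of channels long studied in pain or the cord, and of partner genes the 4 with the smallest p and 5 preset ones. Kcna7, Kcnk15, Kcnh8, the partner Gng2, Kcnn1 and the other untested members, and the markers named, were chosen after their values were seen. Of the members named by this rule, 3 are not reported here one by one. The members and lists were chosen with earlier results of these data known. One probe under an older clone name belongs to Kcnk9 by synonym and was not counted. Alternatives were normexp background correction (offset 50), quantile normalization, the deposited value table, other filters on dim probes, the mean of a gene's probes, a variance trend with robust estimation, the replicate block and leaving out each mouse.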

Additional observations from a re-analysis of the deposited data

How the results depend on the processing

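With 2 mice a group both the calls and the values depended on the processing and on the mice used. Of the 51 genes named by rule and reported, 32 kept their sign under all of the 12 alternatives that gave them a value, and 19 changed sign in at least 1. Of 609 such values, 37 changed sign, 6 lost the call and 8 gained it, and the cause was not tested. At an adjusted p under 0.05 over all genes (limma), normexp correction called 119 higher and 14 lower, quantile normalization 11 and 0, no filter on dim probes 1137 and 88, and a variance trend with robust estimation 422 and 117. Requiring all 4 arrays called 5 lower, and the mean of a gene's probes 7. Among potassium channel genes, quantile normalization called 0 lower (limma, 18 at an unadjusted p under 0.05 in either direction), the variance trend 4 lower and 1 higher, and no filter 1 higher. At an unadjusted p under 0.05, normexp gave 3 higher, no filter 5 and the variance trend 2, and no filter gave 3 higher past 2-fold. Under normexp the medians of astrocyte and of sensory and dorsal horn genes were 0.059 and 0.030, and with the mean of probes the latter was 0.024.

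Values that changed sign under normexp were Kcnd3 0.062, Kcnj16 0.079, Kcnj2 -0.18, Kcnma1 0.16, Kcnn3 0.13, Kcns1 0.026, Kcns2 0.18 and Dpp10 0.11. Under quantile normalization they were Kcna1 -0.10, Kcnab3 -0.012, Kcnip2 -0.026, Kcnj2 -0.084 and Kcnq3 -0.089, and with the mean of probes Kcnip3 0.14 and Kcnma1 0.13.

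With any mouse left out, no gene was called over the array after adjustment (limma), Kcnj14 included. Such fits leave 1 mouse in a group. How many potassium channel and partner genes passed without adjustment varied with the mouse left out, and the share over all genes is not given for these fits. The astrocyte median ran from -0.10 to 0.049 and the sensory and dorsal horn median from -0.15 to 0.032, beside -0.41 to 0.13 for microglia and -0.22 to -0.099 for motor neurons. The microglia value of 0.13 leaves out Kcnk13, which had no sham value in that fit. Ranges that crossed 0 were Kcna1 -0.043 to 0.054, Kcnab3 -0.082 to 0.098, Kcnip2 -0.17 to 0.26, Kcnj2 -0.30 to 0.33, Kcnma1 -0.069 to 0.014, Kcnmb2 -0.14 to 0.24, Kcna3 -0.41 to 0.085, Kcnj13 -0.59 to 2.05, Kcnn3 -0.24 to 0.17, Kcnn4 -0.56 to 0.13, Kcns2 -0.16 to 0.081, Dpp10 -0.15 to 0.088, Kcnk2 -0.23 to 0.024, Kcnq3 -0.012 to 0.071 and Kcnh4 -0.022 to 0.75.

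Replicate numbers did not pair the mice (correlation of same-numbered deviations -0.03). With the replicate block limma called 0 genes higher and 0 lower over the array and 0 potassium channel genes, while 12 of these were lower and 1 higher without adjustment, and partner genes gave 0 higher and 1 lower. A slide or scan block was not run because all 4 arrays share 1 slide and 1 scan. The 8 untested potassium channel genes have no comparison at this signal over background.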
